A study of Mus musculus with 12 samples.

Results

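Solute carriers are membrane proteins that move ions, metals, sugars, organic acids, vitamins and other small molecules across the plasma membrane and across the membranes of organelles. The members described here are the probes whose single annotated symbol has the form Slc, a family number, the letter a and a member number. Slc20a1, Slc2a1, Slc3a2, Slc1a4, Slc1a5 and the whole Slc7 and Slc38 families were left out. The rule used names only, and it took 230 probes of 147 genes, out of 28704 features and 10225 named genes on the array. It was set with earlier results of these data known, so the choice was not blind to them. Since 163 genes had a name of this form, shares below are for the 147 kept and not for all carriers. Carriers with another letter, such as Slc35b1, are no members.

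Total RNA was measured in MC3T3-E1 cells, a clonal osteoblast-like line from mouse calvaria, in 6 control and 6 shear samples. Shear samples came from confluent monolayers on glass slides that met pulsatile flow in a parallel plate chamber. The flow lasted 5 h, pulsed at 1 Hz and gave a mean stress of 5 dyn/cm2. Cells of the control group stayed static in such an apparatus, and both groups were grown with 5% serum and held in chamber medium with 1% serum. Each of 6 arrays held 2 samples of one condition in different dyes. Within a group the pairs were inferred to be replicates 1 with 2, 3 with 4 and 5 with 6. All samples come from 1 cell line, and the labels do not say that they were separate cultures, so the p-values measure a spread that may be technical.

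Between 18434 and 23790 features had a value in a sample, and 166 to 201 of the 230 member probes. The median net fluorescence, recovered from the scaled values as described under processing, was 243 to 868. Values are log2 signals relative to the median of a block of spots, so they compare samples for 1 probe and not 1 gene with another. Over the tested members the samples of an array correlated at 0.945 to 0.983 (Pearson, across genes, 6 pairs), and samples of a group on other arrays at 0.688 to 0.944 (24 pairs). Control replicates 3 and 4, on the same array, held the fewest values (180 and 166 member probes). Without them 128 carriers could still be fitted, of which 14 turned in sign and 15 moved by more than 0.3 on the log2 scale. Both values are given below for the carriers named there that did either. Of the osteoblast markers Col1a1, Col1a2, Sparc, Alpl, Msx2 and Dlx5 were tested, while Runx2, Sp7, Bglap, Spp1 and Ibsp were not analysed here. In bulk RNA, fewer cells with a transcript and less of it per cell cannot be told apart.

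Carriers of a family tend to share a substrate class. Most Slc25 proteins lie in the inner mitochondrial membrane and link the matrix to the cytosol. Slc30 proteins lower cytosolic zinc by moving it out of the cell or into vesicles, and Slc39 proteins raise it. Many Slc35 proteins bring nucleotide sugars into the Golgi and endoplasmic reticulum, where glycans of the bone matrix are built. Some of the Slc16 carriers move lactate and pyruvate together with protons.

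Of the 147 carrier genes, 130 were measured in 4 or more of the 6 samples in both groups and were tested with limma. Only Slc16a1 passed at an adjusted p of 0.05, higher under shear, and no carrier passed lower. That is 0.769% of the tested carriers, against 1.51% of all 15603 features tested (1.3% higher and 0.205% lower under shear). At an unadjusted p of 0.05 (limma), 10 carriers were higher and 2 lower, 7.69% and 1.54% of them, beside 10.5% and 3.44% of all features. Without control replicates 3 and 4 no carrier passed.

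The median log2 change (shear minus control) of the tested carriers was 0.09, and that of all features was 0.11. After centring on the features present in every sample, the median of all features moved to -0.02, so a sign near 0 is not read as a direction, and counts are given against 0.11. Of the 130 carriers, 63 (48.5%) lay above the median of all features. An absolute change of at least 1 was fitted for 8 carriers, or 6.15%, beside 5.64% of all features. The median standard error (SE) of a carrier's change was 0.30, so a change below about 0.61, which is 2 SE, could mostly not be told from the spread between samples.

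**Figure D1:**
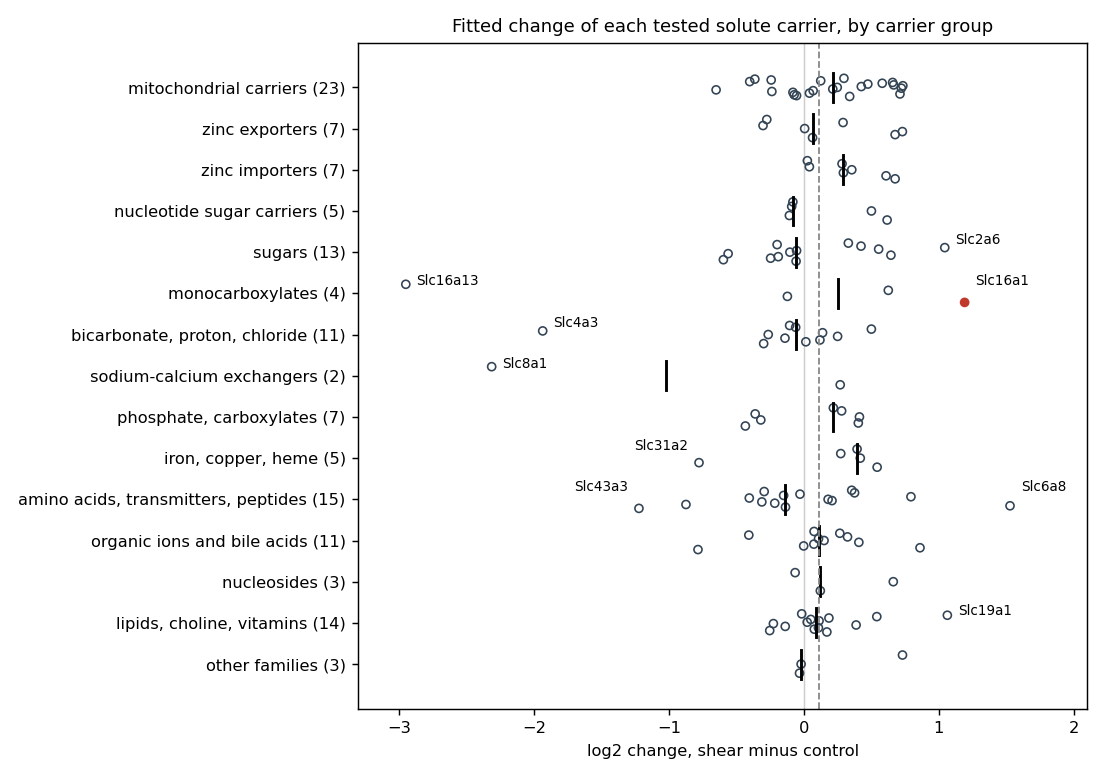
Log2 change (x axis, shear minus control) of each of the 130 tested carriers, by carrier group (y axis, number tested in brackets). Circles are genes, the filled circle passed (Slc16a1), black bars are group medians and the dashed line is the median of all features, 0.11. Most carriers lie within 1 of 0 and Slc16a13, Slc8a1 and Slc4a3 lie far to the left.

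Slc16a1 (Entrez gene 20501) encodes MCT1, the proton-linked carrier of lactate and pyruvate found in many cell types. Its log2 signal lay between -0.64 and -0.05 in the 6 control samples, with a median of -0.55. In the 6 shear samples it lay between 0.42 and 1.23, with a median of 0.60. Every shear sample was above every control sample, and control replicate 1 was the highest of its group. The change was 1.19 ± 0.26 (SE, n = 6 per group), which is 2.28-fold higher under shear, with adjusted p = 0.0373 (limma, Benjamini-Hochberg). The group means were -0.47 ± 0.21 and 0.72 ± 0.33 (SD, n = 6 each). The gene had 1 measured probe, so no other probe could be set beside it.

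The call stood close to the threshold. Without any 1 replicate the change was 1.14 to 1.26, and the call was lost in 9 of these 12 fits, with adjusted p from 0.0289 to 0.0998 (limma, Benjamini-Hochberg). It was lost without each array except that of control replicates 1 and 2, at changes of 0.99 to 1.31 over the 6 fits. With each array averaged to 1 value, which counts 3 arrays per group, the change was the same and adjusted p was 0.105 (limma, Benjamini-Hochberg).

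The 250 bases before the start of Slc16a1 in RefSeq (GRCm38.p6, chr3:104638414-104638663, plus strand, 5′ to 3′) are shown because it is the carrier that passed. Capitals mark the motif CACGTG, an E-box to which Myc with Max and related factors can bind, and which reads the same on both strands.

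Slc16a1: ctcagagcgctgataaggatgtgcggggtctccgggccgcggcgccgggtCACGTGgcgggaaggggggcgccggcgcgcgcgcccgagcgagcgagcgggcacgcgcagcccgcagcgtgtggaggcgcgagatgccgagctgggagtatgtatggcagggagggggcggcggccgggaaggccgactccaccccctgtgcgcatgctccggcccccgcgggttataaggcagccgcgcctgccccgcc

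The motif occurs 1 time in this window and begins 200 bases before the start. The same letters were found in 6.02% of all 32851 windows of this length, and in 6.86% of genes with a window. Of the 101 tested carriers with a window, 17 (16.8%) held it. The genes with a window were not limited to those tested on the array, so these shares are not of like sets. The difference between them was not tested. A match of these letters is a description of the sequence and no measurement of binding.

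Of the other monocarboxylate carriers, Slc16a3 (MCT4, which exports lactate) stood at 0.63 ± 0.34 (SE) with a value in 4 samples of each group. Slc16a5 stood at -0.12 ± 0.27. Neither passed. Slc16a13 is described below with the array of control replicates 3 and 4.

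Carriers of vitamins and lipids included the member nearest to the threshold. Slc19a1 encodes the reduced folate carrier, which brings folates into the cell. Its log2 signal was 1.63 to 2.75 in control samples (median 1.92) and 2.90 to 3.34 in shear samples (median 3.13), without overlap. The change was 1.06 ± 0.26 (SE, n = 6 per group), or 2.09-fold, with adjusted p = 0.0629 (limma, Benjamini-Hochberg). The gene's other probe stood at 0.11 ± 0.30, so the value rests on 1 probe. The call was gained without a dye term and when dim features were left out (adjusted p = 0.0439 and 0.0491, limma with Benjamini-Hochberg). Slc27a2, a fatty acid carrier and acyl-CoA ligase, stood at 0.54 ± 0.28 with 4 shear samples measured. The 14 tested members of this group had a median of 0.09, from -0.25 (Slc46a1) to 1.06.

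Metal carriers other than those of zinc gave the lowest adjusted p among carriers that were lower under shear. Slc31a2 encodes CTR2, a copper carrier of endosomes and lysosomes. Its log2 signal was 0.09 to 0.38 in control samples (median 0.21) and -0.82 to -0.26 in shear samples (median -0.59). All 6 shear samples were below all 6 control samples. The change was -0.78 ± 0.20 (SE, n = 6 per group), 1.71-fold lower, with adjusted p = 0.0822 (limma, Benjamini-Hochberg). It passed after centring on the features present in every sample, at -0.91 with adjusted p = 0.0367, and with cyclic loess, at -0.88 with adjusted p = 0.0481. Slc31a1 encodes CTR1, the copper importer of the plasma membrane, and its 4 tested probes stood at 0.27, 0.49, 0.57 and 0.66, with none passing (limma). Another probe, with values in 2 control samples (1.07 and 1.28) and 4 shear samples (-0.86 to 1.72), was not tested. The difference between the copper carriers was not tested. Slc48a1 (a heme carrier, 0.54 ± 0.42), Slc40a1 (ferroportin, the iron exporter, 0.42 ± 0.38) and Slc11a2 (DMT1, an iron importer, 0.39 ± 0.32, and -0.02 on its other probe) did not pass.

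In 6 of the 130 tested carriers the ranges of control and shear samples did not overlap. Of these, 4 were higher under shear (Slc16a1, Slc19a1, Slc25a5 and Slc35a3), or 3.08% of tested carriers beside 5.76% of all features. The others, Slc31a2 and Slc22a2, were lower, 1.54% of carriers beside 1.6% of all features. These are the chosen probes, and the other probe of Slc25a5 was lower under shear without overlap, as given below. Slc22a2, an organic cation carrier, was measured in 4 samples of each group, at -1.88 to -1.23 in control and -2.83 to -2.21 in shear samples. These values lay near the lowest signals measured, where the lowest 5% of a sample's signals lay under -2.87 to -2.18. Its change of -0.78 ± 0.42 (SE) did not pass.

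**Figure D2:**
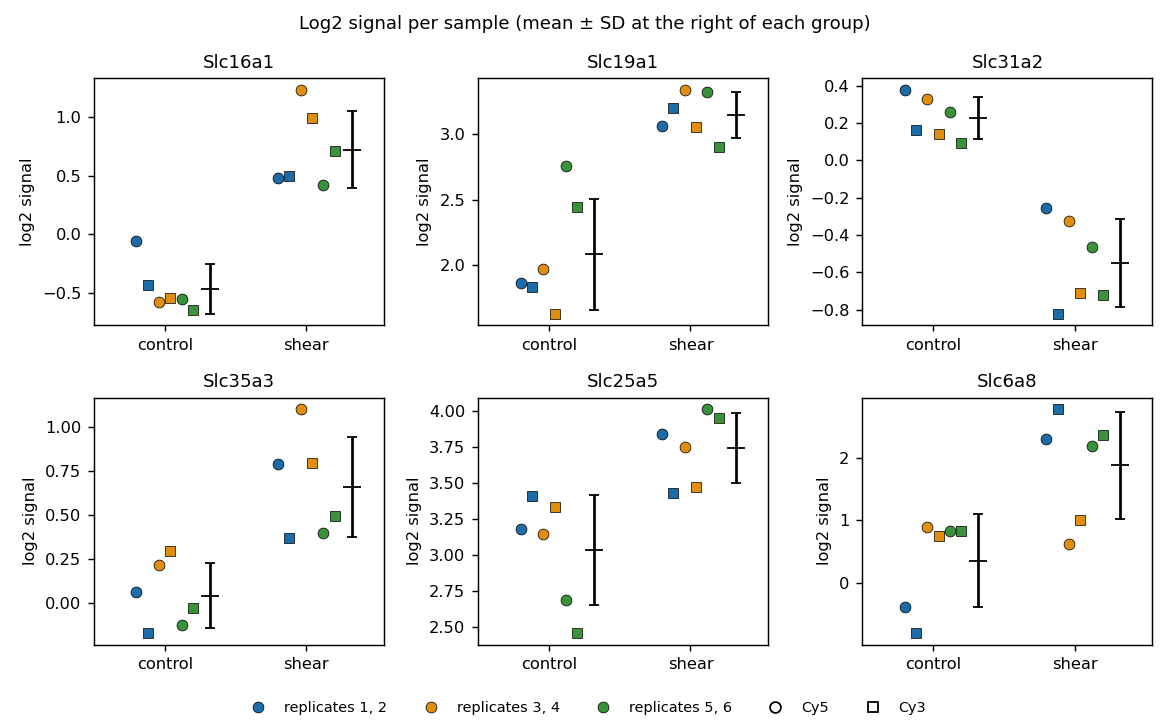
Log2 signal (y axis) of 6 carriers in each control and shear sample, with colour for the array, a circle for Cy5 and a square for Cy3, and the mean ± SD (n = 6) at the right of each group. On the chosen probes the groups do not overlap for Slc16a1, Slc19a1, Slc31a2, Slc35a3 and Slc25a5, and the other probe of Slc25a5 goes the opposite way. Shear replicate 3 of Slc6a8 (0.62) lies among the control samples.

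Mitochondrial carriers, here all genes numbered Slc25 whatever their membrane, were the largest family, with 25 genes on the array and 23 tested. None passed (limma). At an unadjusted p of 0.05, 2 of 23 were higher and none lower, beside 10.5% and 3.44% of all features. Their median change was 0.21, from -0.65 (Slc25a1) to 0.73 (Slc25a40), and 13 of 23 lay above the median of all features. Without values in any sample were Slc25a23 and Slc25a33.

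Slc25a37 encodes mitoferrin 1, which carries iron into the mitochondrion. On the chosen probe its log2 signal was 0.05 to 0.92 in control (median 0.28) and 0.39 to 1.73 in shear samples (median 1.13), and the groups overlapped. The change was 0.72 ± 0.33 (SE), and its other probes gave 0.86 ± 0.27 and 1.29 ± 0.36, so all 3 probes lay above the median of all features. None passed, with adjusted p = 0.351 for the chosen probe and 0.141 and 0.0924 for the others when every probe was tested (limma, Benjamini-Hochberg). Slc25a28, the related mitoferrin 2, stood at 0.34 ± 0.30, and at -0.04 without control replicates 3 and 4, which were its lowest controls. Its other probe stood at 0.15.

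Slc25a5 encodes ANT2, an exchanger of ADP and ATP. On the chosen probe its signal was 2.45 to 3.41 in control and 3.43 to 4.02 in shear samples, a change of 0.71 ± 0.28 (SE) that did not pass. The other probe went the opposite way, at -1.53 ± 0.45, with control samples at 2.29 to 3.25 and shear samples at 0.21 to 2.16, also without overlap. Its adjusted p was 0.107 when every probe was tested, and that of the chosen probe was 0.256 in the reported fit (limma, Benjamini-Hochberg). With the probes of Slc25a5 averaged the value was -0.41, so the direction of this gene depends on the probe.

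Among carriers of substrates of respiration, Slc25a3 (the mitochondrial phosphate carrier) stood at 0.47 ± 0.27 and at 0.78 on its other probe. Slc25a20 (carnitine and acylcarnitine) stood at 0.66 ± 0.32, and at 1.08 without control replicates 3 and 4, which were its highest controls, with 0.08 on its other probe in all samples. Slc25a32 (folate and flavin) stood at 0.66 ± 0.42 and Slc25a36 (pyrimidine nucleotides) at 0.43 ± 0.34, with 0.71 on its other probe. The chosen probe of Slc25a36 stood at 0.05 without control replicates 3 and 4. At the low end, Slc25a1 (the citrate carrier) stood at -0.65 ± 0.32, Slc25a15 (ornithine) at -0.40 ± 0.23, Slc25a11 (oxoglutarate and malate) at -0.36 ± 0.26 and Slc25a13 (aspartate and glutamate) at -0.24 ± 0.26. The other probes of Slc25a1 and Slc25a13 also lay below 0, at -0.14 and at -0.31 and -0.32. Slc25a10, the dicarboxylate carrier, was at -0.05 on the chosen probe and -0.06 on the other.

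No zinc importer passed. On the chosen probes, all 7 tested Slc39 members had a change above 0 in the reported fit, where 61.0% of all features did. With quantile normalization, cyclic loess or centring on features present in every sample, 5 of 7 did. Against the median of all features, 5 of 7 lay above it in each of these 4 fits. The family median was 0.29 in the reported fit and 0.16 to 0.32 in the others. Slc39a14 (ZIP14, which carries zinc and also iron) had a log2 signal of 1.47 to 2.02 in control (median 1.92) and 1.96 to 2.69 in shear samples (median 2.46). Its change was 0.61 ± 0.23 (SE) with adjusted p = 0.249 (limma, Benjamini-Hochberg), and its other probe gave 0.69 ± 0.24. The other probe of Slc39a4 went the opposite way from the chosen one, at -0.48 ± 0.33 beside 0.28 ± 0.30. Slc39a10 stood at 0.68 ± 0.40, where shear replicates 3 and 4 (-0.13 and 0.12) lay within the control range and the other shear samples (1.19 to 1.69) above it. Slc39a13, a zinc carrier of the secretory pathway in connective tissue, stood at 0.03 ± 0.35, and Slc39a8 at 0.04 ± 0.30, and these were the members that turned below 0 with other scalings. At an unadjusted p of 0.05 (limma) 1 of 7 Slc39 members was higher, Slc39a14, beside 10.5% of all features.

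Of the zinc exporters, 7 of 8 were tested, with none at an unadjusted p of 0.05 (limma), beside 10.5% of all features higher and 3.44% lower. Their median was 0.06, and -0.17 to -0.07 with the other scalings. Slc30a1 (ZnT1, the exporter of the plasma membrane, known to respond to zinc through MTF1) was at -0.45 to 0.53 in control and -0.39 to 1.59 in shear samples. Its shear samples were spread widely, and shear replicate 4 was as low as the lowest controls. The change was 0.73 ± 0.39 (SE). Slc30a4 stood at 0.68 ± 0.40 and at 0.36 without control replicates 3 and 4, with shear replicates 5 and 6 (0.18 and 0.51) below the other shear samples, which reached 2.33. Slc30a7 (0.29), Slc30a9 (0.01) and Slc30a3 (-0.30) were nearer 0, as was Slc30a5 at 0.06, with -0.02 without control replicates 3 and 4 and 0.65 on its other probe. Slc30a2 stood at -0.27 ± 0.43 in all samples and at 0.39 ± 0.29 without control replicates 3 and 4 (6.53 and 6.43, other controls 4.10 to 4.91), so its sign rests on that array. The other genes of zinc handling were the metallothioneins Mt2 (0.90 ± 0.37) and Mt1 (0.52 ± 0.31), which store zinc, and Mtf1 (0.38) and Mtf2 (0.07). None of these 4 passed, and 3 of 4 lay above the median of all features.

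Of the nucleotide sugar carriers, the 5 genes of subfamily A were tested and none passed. Slc35a3, a carrier of UDP-N-acetylglucosamine, was at -0.17 to 0.30 in control (median 0.02) and 0.37 to 1.10 in shear samples (median 0.64), without overlap. Its change was 0.62 ± 0.25 (SE), with adjusted p = 0.276 (limma, Benjamini-Hochberg), and 0.37 ± 0.31 on its other probe. Slc35a4 stood at 0.50 ± 0.23. The others were close to 0, with Slc35a1 (CMP-sialic acid) at -0.08, Slc35a5 at -0.09 (-0.88 on its other probe) and Slc35a2 (UDP-galactose) at -0.11. Slc35a3 and Slc35a4 were the members of the family at an unadjusted p of 0.05 (limma), 2 of 5 tested, beside 10.5% of all features higher.

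The carriers of subfamilies B to F are no members and were read as a list beside them, and not all of them need carry nucleotide sugars. None of 13 tested passed, with a median of 0.25 and a range from -0.38 (Slc35b2, which carries the sulfate donor PAPS) to 1.82 (Slc35b4). The smallest p were those of Slc35f2 (0.89 ± 0.22, adjusted p = 0.0681) and Slc35b4 (1.82 ± 0.61, adjusted p = 0.177, limma with Benjamini-Hochberg). The control samples of Slc35b4 had an SD of 1.41. Of 15 tested enzymes that make nucleotide sugars, 1 passed higher and none lower, beside 1.3% and 0.205% of all features. Their median was 0.09. The enzyme that passed was Ugdh, the dehydrogenase that makes UDP-glucuronic acid, a precursor of hyaluronan and of proteoglycan chains. Its log2 signal was 1.97 to 2.76 in control (median 2.45) and 3.07 to 4.38 in shear samples (median 3.95), without overlap. The change was 1.37 ± 0.32 (SE, n = 6 per group) with adjusted p = 0.0467 (limma, Benjamini-Hochberg). Its other probes gave 1.34 and 1.20 and did not pass when every probe was tested (adjusted p = 0.161 and 0.119, limma with Benjamini-Hochberg). The call was lost in 11 of 12 fits without 1 replicate, in 5 of 6 without 1 array and in 5 of 13 other settings, at changes of 1.11 to 1.70. The enzyme with the next smallest p was Galt, at -0.95 ± 0.29, which did not pass.

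**Figure D3:**
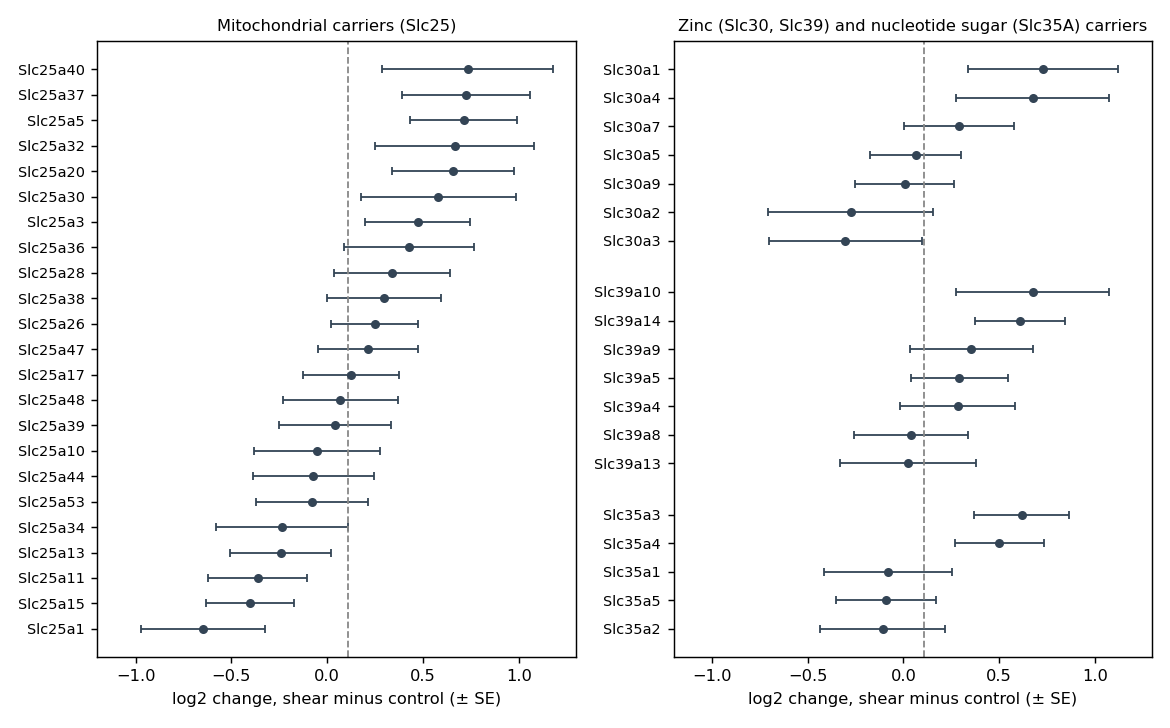
Log2 change (x axis, shear minus control, ± SE, n = 4 to 6 per group) of the 23 mitochondrial carriers (left) and of the Slc30, Slc39 and Slc35 subfamily A carriers (right). The dashed line is the median of all features, 0.11. No carrier shown passed. The chosen probes of the Slc39 members lie at 0.03 to 0.68, and those of Slc39a13 and Slc39a8 turn below 0 with other scalings.

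Amino acid, transmitter and peptide carriers outside the Slc7 and Slc38 families had the highest change of any tested carrier. Slc6a8, the creatine carrier, was at -0.81 to 0.89 in control (median 0.79) and 0.62 to 2.79 in shear samples (median 2.25). Shear replicates 3 and 4 (0.62 and 1.00) lay at or near the highest controls, and the other 4 shear samples were at 2.19 or higher. The change was 1.53 ± 0.47 (SE, n = 6 per group), 2.88-fold, with adjusted p = 0.133 (limma, Benjamini-Hochberg). Its other probes gave 0.34 ± 0.30 and 0.52 ± 0.30. Slc6a9 (GLYT1, a glycine carrier) stood at 0.79 ± 0.34 and at 0.15 on its other probe.

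At the low end of that group, Slc43a3 stood at -1.22 ± 0.60 with 4 control samples measured. Those of the array of control replicates 5 and 6 (0.66 and 0.30) were high and those of replicates 1 and 2 (-2.13 and -2.54) were within the shear range of -3.02 to -1.34. Slc1a3, the glutamate carrier EAAT1 or GLAST, was at -1.02 to 1.97 in control and -1.59 to 1.16 in shear samples, a change of -0.87 ± 0.85. Slc6a6, the taurine carrier, stood at -0.40 ± 0.35 and at -0.86 on its other probe. The 15 tested members had a median of -0.14, and 6 lay above the median of all features.

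Of the sugar carriers left after Slc2a1 was set aside, 13 were tested and none passed, with a median of -0.06. None reached an unadjusted p of 0.05 (limma), beside 10.5% of all features higher and 3.44% lower. Slc2a6 (GLUT6) was the highest, at 1.04 ± 0.50 (SE). Its control samples lay at -2.01 to -1.40, apart from replicates 3 and 4 at 0.06 and 0.38, and its shear samples at -0.65 to 0.87. Without control replicates 3 and 4 the change was 1.71, with adjusted p = 0.0767 (limma, Benjamini-Hochberg). Slc5a6, a carrier of biotin and pantothenate, stood at 0.55 ± 0.27, Slc2a4 (the insulin-responsive GLUT4) at 0.64 ± 0.33 with 4 shear samples, Slc2a3 (GLUT3) at -0.10 ± 0.35 (-0.48 without control replicates 3 and 4) and Slc37a3 at -0.60 ± 0.32. Slc2a8 (GLUT8) was at -0.05 on the chosen probe, and at 0.00 without control replicates 3 and 4, while its other probes gave -1.11 ± 0.31 and 0.58 ± 0.45.

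Organic ion and bile acid carriers had a median of 0.11 over 11 genes. Slc22a4 (OCTN1, which carries ergothioneine) was at -1.86 to -0.44 in control and -0.61 to -0.04 in shear samples. Its change was 0.86 ± 0.31 (SE) with adjusted p = 0.218 (limma, Benjamini-Hochberg). Slc22a5 (OCTN2, a carnitine carrier) stood at 0.41 ± 0.35, at 0.06 without control replicates 3 and 4, and at 0.03 on its other probe. Of 3 tested nucleoside carriers, Slc28a2 stood at 0.66 ± 0.34, with control replicate 4 (-1.01) far below the other controls (0.20 to 0.73). Slc29a1 (ENT1) stood at 0.12 ± 0.33, with -0.20 and 0.49 on its other tested probes, and it lay below 0 with the other scalings (-0.10 with cyclic loess). A further Slc29a1 probe had values in 2 control samples (2.26 and 1.48) and 3 shear samples, with shear replicates 1 and 3 at -3.15 and -3.12. It was not tested.

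Phosphate and carboxylate carriers did not pass either. Slc20a2 (PiT2), the other widely expressed sodium-phosphate carrier beside Slc20a1, stood at 0.28 ± 0.26 and at 0.05 on its other probe. Slc34a3 stood at 0.40 ± 0.27 and Slc34a2 at -0.32 ± 0.21 (-0.66 on its other probe), and Slc17a9, the vesicular nucleotide carrier that loads ATP for release, at 0.41 ± 0.25. The median of the 7 tested members was 0.22.

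Carriers of bicarbonate, protons and chloride had a median of -0.06 over 11 tested genes. Slc26a11 was at 0.19 to 0.81 in control and 0.73 to 1.43 in shear samples, a change of 0.50 ± 0.24. Slc4a2 (AE2, an anion exchanger that exports bicarbonate) was at 0.01 ± 0.30 and turned to -0.14 with cyclic loess and to -0.18 without control replicates 3 and 4, and Slc12a4 (KCC1) at 0.14 ± 0.24 turned to -0.02 with it. Slc14a1, a urea carrier, stood at 0.73 ± 0.55, and its other probes at -0.33 and 0.23, with control samples of the chosen probe from 1.93 to 3.86 spread around the shear samples of 2.75 to 4.13. Slc24a5 stood at 0.27 ± 0.28 and Slc66a1, a lysosomal carrier of basic amino acids, at -0.03 ± 0.33.

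The size of the 3 lowest changes of tested carriers rested on the array of control replicates 3 and 4. Slc16a13 had a net fluorescence of 40852 and 32455 in those samples and of 140 to 323 in the other controls, and 63 to 238 in shear samples. Slc8a1, the sodium-calcium exchanger NCX1, had 3027 and 9203 in those samples and 241 to 356 in the other controls. Slc4a3, an anion exchanger, had 14541 in control replicate 3, no value in replicate 4 and 236 to 599 in the other controls. The probes of Slc8a1 and Slc4a3 stand in neighbouring rows of the deposited table.

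The fitted changes were -2.95 ± 1.43 for Slc16a13, -2.31 ± 1.00 for Slc8a1 and -1.93 ± 0.93 for Slc4a3 (SE), and none passed. Without control replicates 3 and 4 they were -0.27 ± 0.30, -0.79 ± 0.33 and -0.39 ± 0.25 (SE), all still below 0. Below every measured control lay 2 shear samples of Slc16a13, 5 of Slc8a1 and 4 of Slc4a3. The other probe of Slc16a13 gave 0.20 ± 0.43 and that of Slc8a1 -0.44 ± 0.48. Over all features, 36 of 15603 (0.231%) had a mean in control replicates 3 and 4 more than 3 above that of the other controls, and 3 of 130 tested carriers (2.31%). The part of this array in other results was not tested beyond leaving it out.

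**Figure D4:**
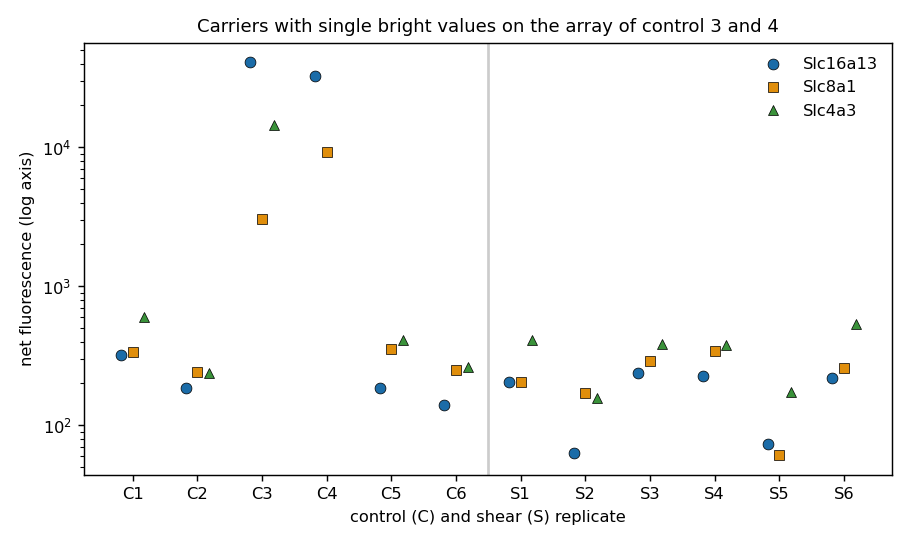
Net fluorescence (y axis, log axis) of Slc16a13, Slc8a1 and Slc4a3 in each control (C) and shear (S) replicate (x axis). Control replicates 3 and 4 reach 3027 to 40852, and all other samples lie between 61 and 599.

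Probes of the same carrier often differed. Of the 130 tested carriers, 45 had at least 1 other tested probe, 58 probes in all, and 39 of the 58 (67.2%) had a change of the same sign as the chosen probe. Over all named genes that share was 65.9%. The changes of the chosen and the first other probe correlated at 0.17 (Pearson) across the 45 genes, which are not independent replicates, and at 0.42 across all genes with several probes. The median difference between them was 0.42 on the log2 scale. The probes of Slc39a14 differed by less than that, at 0.61 and 0.69, those of Slc25a37 ran from 0.72 to 1.29, and those of Slc25a5 had opposite signs.

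**Figure D5:**
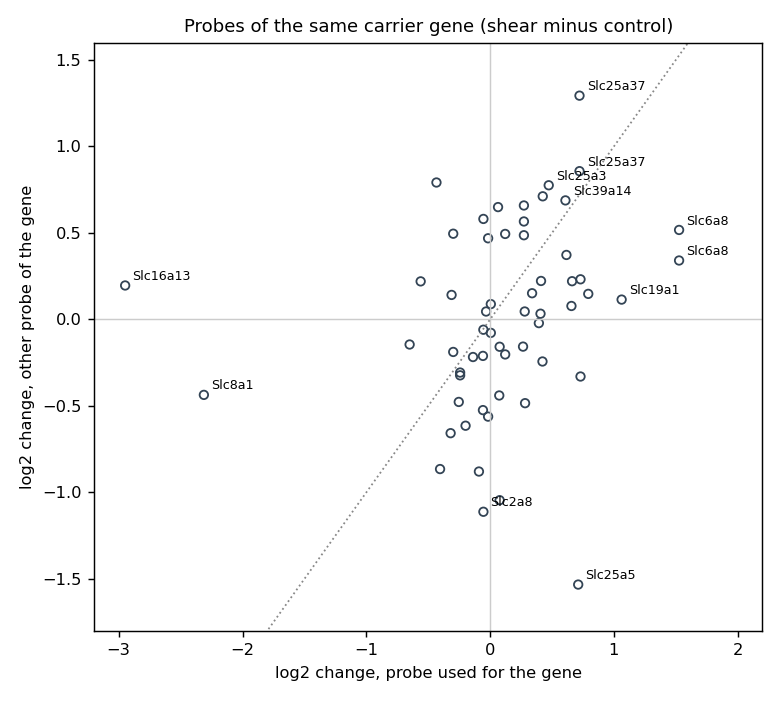
Log2 change (shear minus control) of the chosen probe of a carrier (x axis) against that of each other tested probe (y axis), 58 probes of 45 genes, with the dotted line marking equal changes. Slc39a14 (0.61 and 0.69) lies near the line, Slc25a37 has 0.72 on the chosen probe and 0.86 and 1.29 on the others, and Slc25a5 has 0.71 on one probe and -1.53 on the other.

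The 17 carriers that were not tested had too few values. Slc16a12, Slc1a2, Slc25a23, Slc25a33, Slc45a1 and Slc5a1 had none in any sample. Slc16a10, an aromatic amino acid carrier, had a value in 5 shear samples (-3.17 to -2.11) and in 1 control sample (-3.24), all near the lowest signals. Slc30a10 (2 control and 6 shear samples), Slc17a3 (2 and 6), Slc6a15 (3 and 6) and Slc29a2 (5 and 2) were measured mostly in one group. Slc6a15 was at 1.62 and 1.47 in control replicates 5 and 6, at -2.87 in control replicate 1 and at -2.27 to -1.39 in shear samples. Slc19a3, Slc26a1, Slc3a1, Slc44a4, Slc4a4 and Slc9a7 had values in at most 3 samples of either group.

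A list of proteins that work with carriers gave no call. It also held Ucp1, Ucp3, Mtch1 and Mtch2, which belong to the mitochondrial carrier family themselves. Of the 13 tested genes of this list none passed, with a median of 0.00, the value of Mtch1. The range was from -1.03 (Slc9a3r2) to 0.72 (Nedd4l, a ubiquitin ligase that removes carriers from the membrane). Slc9a3r1 (NHERF1, a scaffold that holds carriers at the membrane) had the smallest p, at -0.84 ± 0.28, and Bsg (basigin, which brings Slc16a1 and Slc16a3 to the cell surface) stood at 0.36 ± 0.32. Of 8 tested ATP-driven ion pumps none passed, with a median of 0.37, and Atp2a2 (1.34 ± 0.33, adjusted p = 0.0641, limma with Benjamini-Hochberg) and Atp2b1 (0.69 ± 0.24) had the smallest p.

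Markers of other cell types were tested as lists, and none of their members passed. They were 5 of macrophages and osteoclasts (-0.68 to 0.34), 6 endothelial (-0.31 to 0.80), 4 of adipocytes (-0.36 to 0.42), 4 of chondrocytes (-0.35 to 0.32) and 4 of muscle (-0.59 to 0.01). The mean log2 signal of the markers measured in every sample overlapped between the groups for each list. For muscle, with 2 such markers, it was -0.78 to 0.30 in control and -1.31 to 0.47 in shear samples. The part of these levels in the carriers' values was not tested. Of the 6 osteoblast markers 1 passed, Dlx5, lower under shear (-0.97), where 0.205% of all features passed lower.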

How the data were processed

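Arrays, labels and groups are as given in the report, and per the labels odd replicates carried Cy5 and even ones Cy3. The authors deposited 1 log2 value per feature and sample. For each sample and block of 598 features, a factor was searched that turns the values, taken out of log2, into whole numbers. It was found in 576 of 576 combinations (100% of values, within 0.002). The products are called net fluorescence here. Whether the factor is the block's median was not tested. The scanner, the background correction and the spot filter were not given in the sources used here. Scaling to the median of a block hides any shift that all genes share.

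Symbols came from the platform annotation, and 18267 of 18511 probes with 1 symbol were matched to RefSeq by Entrez number. Each gene took 1 probe with values in 4 or more of 6 samples per group, chosen by number of values and then by mean. limma (version 3.58.1, R 4.3.3) was fitted to 15603 features with group and dye as terms and array as a random block (correlation 0.733 over features with all values), and p-values were adjusted with Benjamini-Hochberg. Each array held 1 group, so p-values can be too small. On simulated data of this comparison with 15603 features, 27% of 100 changes of 1 and 89% of 100 changes of 2 (log2) were recovered, and 5 of 121 calls were false.

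Members, lists and tests were chosen with earlier results of these data known. Named were carriers that passed, the 6 highest and 6 lowest changes, the 2 smallest p of each of 15 carrier groups, and carriers measured in at least 5 samples of one group and at most 1 of the other. Others were added after their values were seen, to show a family's range or its probes. The motif was also chosen then. Alternatives were 13 settings, 12 fits without 1 replicate and 6 without 1 array. The fit without control replicates 3 and 4 was read for every carrier, and marker levels were limited to markers measured in every sample, after the data had been seen. Tables and plots were made in Python 3.11.15 with pandas 2.3.3, numpy 2.4.6 and matplotlib 3.10.9.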

Additional observations from a re-analysis of the deposited data

Results flagged for a closer look

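Of 64 groups of 4 to 6 samples of the named carriers, 4 had 1 sample far from the rest. Chance flags about 1 in 20 groups of independent samples, and samples of an array are not independent. The ratio given is the distance to the closest sample divided by the group's range. Slc16a1 was highest in control replicate 1 (-0.0539, next -0.43, ratio 0.644). Slc4a3 was highest in control replicate 3 (5.12, next 0.05, ratio 0.904, 5 samples). Slc28a2 was lowest in control replicate 4 (-1.01, next 0.20, ratio 0.696). Slc24a5 was highest in shear replicate 1 (0.66, next 0.16, ratio 0.636).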

How the results depend on the processing

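The median change of the tested carriers, 0.09 in the reported fit, was -0.07 to 0.22 over the 31 alternatives. All stayed within the spread between samples (SD 0.16), but that limit is wider than the median itself and allows a turn of sign. With cyclic loess the median was -0.07, and with centring on features measured in all samples -0.03, where the median of all features was -0.01 and -0.02. The number of carriers passing higher was 1 of 130 in the reported fit, where 203 of 15603 features passed higher. It was 2 of 69 when dim features were left out (177 of 8262 features) and 2 of 130 without a dye term (306 of 15603). It was 0 with each array averaged (65 of 16387) and 9 of 130 without the array block (1270 of 15603). The number passing lower was 0 in the reported fit, where 32 of 15603 features passed lower. It was 1 with cyclic loess (74 of 15603), 1 with centring on features measured in all samples (80 of 15603) and 2 without the array block (447 of 15603). With the replicate number as a block and no array block, 6 of 130 passed higher and 1 lower, beside 1096 and 356 of 15603 features. That fit takes samples of an array for independent, the deviations of same-numbered samples correlated at -0.087 to 0.098, and 0 of 6 correlated best with their own number. Without 1 replicate, 0 to 1 passed higher and 0 to 0 lower. Without control replicates 3 and 4, shear replicates 1 and 2, 3 and 4, or 5 and 6, 0 passed higher. Without control replicates 5 and 6 the carrier passing was Slc19a1 (1.32).

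Of 952 values of the 32 named carriers under alternatives, 940 kept their sign, taken about 0. The carriers were named for their changes or p in the same data. Some alternatives also left the change itself unaltered, so this count is no measure of robustness. Slc29a1 turned to -0.023 with quantile normalization, -0.10 with cyclic loess, -0.014 with centring on features measured in all samples, -0.40 with probes averaged and -0.0362 without control replicates 1 and 2. Slc66a1 turned to 0.0067 with probes averaged, 0.0017 without control replicate 5, 0.061 without shear replicate 2, 0.21 without control replicates 5 and 6 and 0.37 without shear replicates 1 and 2. With probes averaged Slc27a2 was at -0.087 and Slc25a5 at -0.41. The cause was not tested.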
